A study of Mus musculus with 18 samples.

Results

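Integrins are cell surface receptors made of an alpha and a beta subunit, with which leukocytes hold on to other cells and to the extracellular matrix. The 10 genes described here, of 24485 listed per library, were taken by symbol from a list. Of these, 8 encode integrin subunits (Itga4, Itga5, Itgal, Itgam, Itgav, Itgax, Itgb1 and Itgb2) and 2 encode counter-receptors of the immunoglobulin superfamily (Icam1 and Vcam1). All 10 were found in all 18 libraries.

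RNA-seq was performed on bone marrow-derived macrophages (BMDMs) of Il10-/- mice on the C57BL/6J background, which cannot make the anti-inflammatory cytokine IL-10. The marrow of 3 mice, 12-week-old males by the study's methods, was grown into macrophages in medium conditioned by L929 cells. Cells stayed untreated or received 500 nM (+)-JQ1, an inhibitor of the acetyl-lysine reading bromodomains of BET proteins, or 10 ng/mL IL-10. After 12 hours, either LPS at 50 ng/mL or PBS was added for 4 hours, which gave 6 groups of 3 libraries: Unstimulated, (+)-JQ1, IL-10, LPS, LPS + (+)-JQ1 and LPS + IL-10. All groups share the Il10 deletion, wild-type cells were not analysed here, and the labels call the cells without pretreatment untreated where the methods name a vehicle control for LPS-stimulated cells. The comparisons ask how BET inhibition changes the response of these cells to LPS and how this relates to the effect of exogenous IL-10.

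The libraries held 6781952 to 28289498 expected counts, and Il10 itself still had 16 to 196 reads in each of the 18, which at the gene level does not show whether they lie in the deleted part. All 8 macrophage markers exceeded 1 TPM (a level scaled for gene length and library size) in every group. Markers of neutrophils summed to 6.80 to 79.5 TPM, led by S100a8 and S100a9, with Ly6g at 0 in every library. Stromal markers reached 20.9 TPM and endothelial markers 9.59 TPM, both sums higher in LPS and LPS + IL-10 libraries than in the other groups. Pdgfrb led the stromal sum with LPS (13.3 TPM, 0.4 in Unstimulated cells) and Kdr the endothelial sum (8.12 and 0.497). Means of Col1a1 (1.99 against 3.22), Col1a2 (2.20 against 3.11) and Col3a1 (0.73 against 0.877) were lower with LPS than in Unstimulated cells. Pdgfra, Tie1 and Tek did not exceed 0.17 TPM in any library, and Cdh5 did not exceed 0.63. Markers of T and NK cells reached 8.62, of dendritic cells 5.45 and of B cells 0.84 TPM. Replicate 3 of LPS and replicate 3 of LPS + IL-10 stood apart from the other libraries of their groups, with chi-square statistics per degree of freedom of 22.9 to 27.2 against 3.96 to 10.2 for all other pairs of replicates. The libraries of replicate 1 ran on lane 7 and those of replicate 3 on lane 8. Replicate 2 was split, with its PBS libraries on lane 7 and its LPS libraries on lane 8, so that comparisons across LPS cross lanes in replicate 2 only.

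Macrophage integrins fall into families by their beta subunit. Itgb2 pairs with Itgal to form LFA-1, with Itgam to form Mac-1 (complement receptor 3) and with Itgax to form complement receptor 4, and these receptors occur on leukocytes, where they mediate firm adhesion, migration and phagocytosis of opsonised particles. Itgb1 is expressed by most cell types and pairs with Itga4 to form VLA-4 and with Itga5 to form the classical fibronectin receptor. Itgav pairs with several beta subunits and binds vitronectin and the latent form of TGF-beta. Icam1 is the ligand of LFA-1 and Mac-1, Vcam1 is the ligand of VLA-4, and both are known as targets of NF-kappaB in activated endothelium.

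In the mm9 assembly the genes lie on 7 chromosomes (Icam1 at chromosome 9, 20820404 to 20833241, plus strand, Vcam1 at chromosome 3, 115812938 to 115832606, minus strand, Itgb2 at chromosome 10, 76992997 to 77028453, plus strand, Itgb1 at chromosome 8, 131209554 to 131257100, plus strand, Itga5 at chromosome 15, 103174720 to 103197194, minus strand). Itga4 (chromosome 2, 79095583 to 79173280, plus strand) and Itgav (chromosome 2, 83564554 to 83647073, plus strand) share a chromosome as well. The alpha subunits of Itgb2 among the 10 genes share a chromosome, with Itgal at chromosome 7, 134439774 to 134478651, plus strand, Itgam at chromosome 7, 135206154 to 135271674, plus strand, and, next to it, Itgax at chromosome 7, 135273061 to 135294171, plus strand. Reads were assigned without regard to strand, and exons of Itga4 overlap those of Cerkl on the other strand, but Cerkl did not exceed 0.89 TPM in any library. The microRNA gene Mir1900, opposite Icam1, was listed at 0 throughout, and Gm13684, which overlaps 1 exon of Itgav on the other strand, was not analysed here.

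Promoter windows from RefSeq (assembly GRCm38.p6, 250 bases before to 50 after the start) were matched for 7 of the 10 genes, all but Itgal, Itgb2 and Vcam1. The windows were searched on both strands for the letters GGNNNTTCC (NF-kappaB), TGANTCA (AP-1), GAGGAAG (PU.1, a factor of the myeloid lineage) and for the interferon-stimulated response element. Of 32851 promoter windows of 300 bases, 18.5% held the NF-kappaB letters, 7.81% the AP-1 letters, 13.6% the PU.1 letters and 3.44% the interferon response letters. Shown are the 250 bases before the start of the counter-receptor with the largest rise with LPS, of an integrin that rose with LPS whether or not (+)-JQ1 was present, of both myeloid alpha subunits with a match and of Itga4, whose response to LPS was most reduced by (+)-JQ1. Capitals mark the matches, and no 2 matches overlap.
Icam1 (chr9:21015690-21015939, plus strand): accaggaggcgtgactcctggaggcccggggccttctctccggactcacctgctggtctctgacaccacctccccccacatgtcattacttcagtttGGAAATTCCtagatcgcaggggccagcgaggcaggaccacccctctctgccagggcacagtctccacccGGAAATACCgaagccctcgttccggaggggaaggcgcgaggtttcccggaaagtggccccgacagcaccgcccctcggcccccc
Itga5 (chr15:103366792-103367041, minus strand): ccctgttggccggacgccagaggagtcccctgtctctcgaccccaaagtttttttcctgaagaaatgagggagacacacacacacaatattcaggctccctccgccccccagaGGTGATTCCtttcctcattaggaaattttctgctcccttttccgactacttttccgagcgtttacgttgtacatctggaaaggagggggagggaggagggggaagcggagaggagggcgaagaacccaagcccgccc
Itgam (chr7:128062390-128062639, plus strand): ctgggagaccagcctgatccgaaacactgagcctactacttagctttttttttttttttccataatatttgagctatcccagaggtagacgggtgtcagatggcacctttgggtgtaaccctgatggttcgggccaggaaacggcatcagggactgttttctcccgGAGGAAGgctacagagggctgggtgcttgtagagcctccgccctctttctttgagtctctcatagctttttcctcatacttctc
Itgax (chr7:128129300-128129549, plus strand): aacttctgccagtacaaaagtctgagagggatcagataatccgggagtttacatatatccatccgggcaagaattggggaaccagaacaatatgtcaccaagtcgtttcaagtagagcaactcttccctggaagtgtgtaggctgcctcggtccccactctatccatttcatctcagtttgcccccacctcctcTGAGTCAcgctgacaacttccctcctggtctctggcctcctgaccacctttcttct
Itga4 (chr2:79255176-79255425, plus strand): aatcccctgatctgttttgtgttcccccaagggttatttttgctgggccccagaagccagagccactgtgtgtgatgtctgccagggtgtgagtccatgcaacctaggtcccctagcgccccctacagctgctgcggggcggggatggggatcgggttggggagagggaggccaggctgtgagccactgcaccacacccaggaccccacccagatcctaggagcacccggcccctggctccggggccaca
The capitals are NF-kappaB letters at -153 to -145 and, on the other strand, at -84 to -76 of Icam1, and at -137 to -129 of Itga5. They are PU.1 letters at -84 to -78 of Itgam and AP-1 letters at -56 to -50 of Itgax, while the Itga4 window held none of the 4. Among the windows not shown, Itgb1 held the NF-kappaB letters and Itgav the PU.1 letters. A match describes the letters only, and binding was not measured here.

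The order of the levels was read from TPM. In Unstimulated cells Itgb2 led with 551 ± 28.0 TPM (SD, n = 3), followed by Itgam with 309.5 ± 25.7, Itgb1 with 201 ± 15.4 and Itga5 with 106 ± 16.8, with no overlap between neighbours. Itgax (83.4 ± 12.5 TPM), Itgav (78.8 ± 0.966), Itgal (72.3 ± 16.4) and Icam1 (54.9 ± 20.7) formed a run in which neighbours overlapped. Itga4, which Icam1 did not overlap, had 34.3 ± 1.55 TPM and Vcam1, the lowest of the 10, had 7.61 ± 2.66.

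LPS changed this order. Icam1 became the highest of the 10 genes with 3166 ± 61.9 TPM, followed by Itga5 with 739 ± 39.9, and neither overlapped its neighbours. Itgb2 (325 ± 14.5 TPM), Itgav, Vcam1, Itgal, Itgb1, Itgam and Itga4 (150.5 ± 43.8) formed a run in which each overlapped the next, and Itgax was lowest with 65.0 ± 6.24 TPM. With LPS + (+)-JQ1 no neighbours overlapped, and Itgal was lowest with 15.9 ± 0.527 TPM, below Itga4 with 21.2 ± 2.74.

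Comparisons of groups used counts scaled by the size factors of DESeq2 (normalised counts), with genes called at an adjusted p under 0.05 by its Wald test over all genes. LPS raised 8 of the 10 genes and lowered none, where 31.6% of all tested genes were called higher and 32.9% lower. The median log2 fold change of the 10 was 2.59, against -0.07 over all tested genes. (+)-JQ1 alone lowered 8 of 10 and raised none (background 23.7% lower, 21.9% higher), with a median of -0.88. (+)-JQ1 before LPS lowered all 10 relative to LPS (background 32.9% lower, 24.4% higher), with a median of -1.17 against -0.11 over all tested genes. IL-10 alone raised 1 gene, Itgam (background 1.80% higher, 1.01% lower), whereas IL-10 before LPS raised Itgam and lowered 6 others (background 8.38% higher, 8.81% lower). All called changes of these 5 comparisons had the same sign in the pairs of replicates 1 and 3, which did not cross lanes. With counts scaled by library totals, the share of higher calls among all called genes moved from 49.0% to 20.1% for LPS, from 48.0% to 26.8% for (+)-JQ1 alone, from 42.5% to 64.9% for (+)-JQ1 before LPS and from 48.7% to 71.1% for IL-10 before LPS. In cultured cells, a change in the share of cells that express a gene and a change in RNA per cell cannot be told apart.

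**Figure D1:**
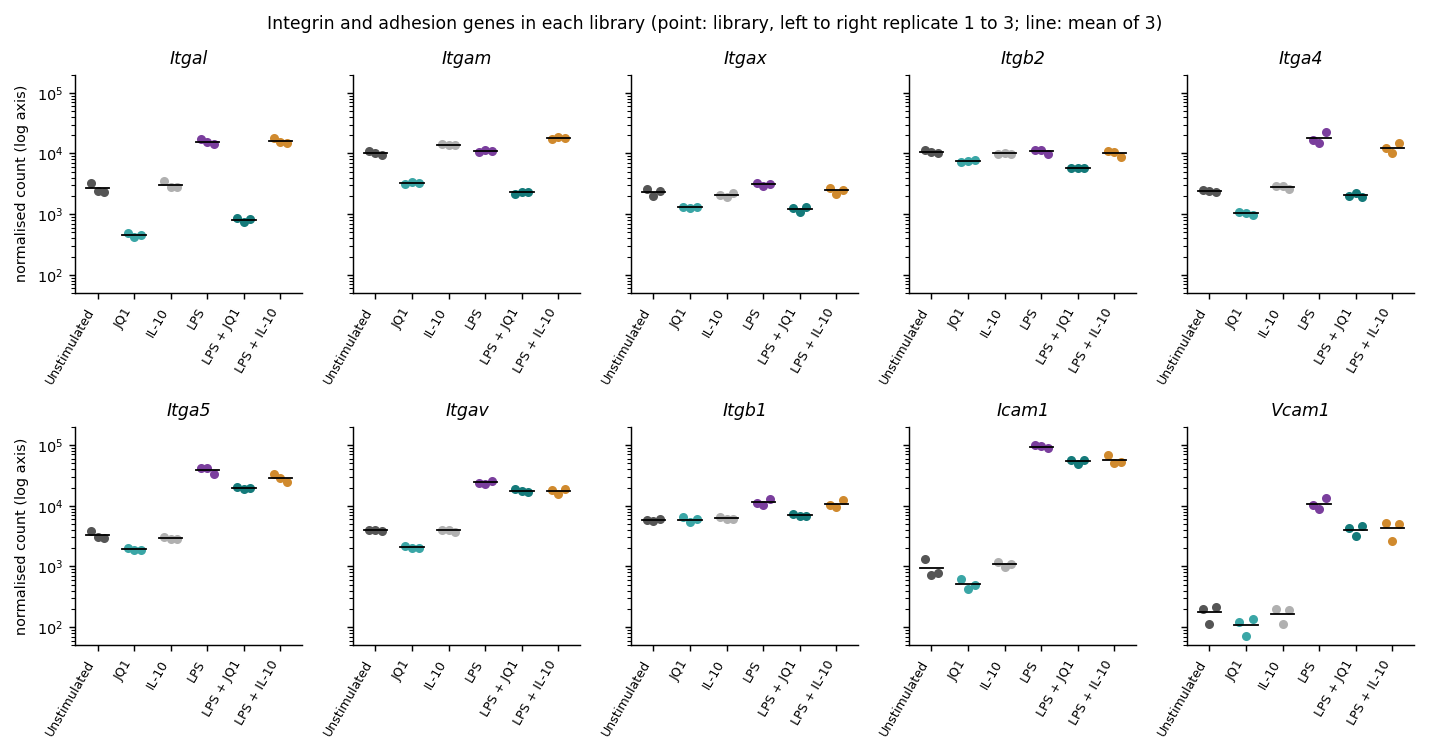
Normalised counts (log axis, the same in each panel) of the 10 genes in each of the 18 libraries, with points for replicates 1 to 3 from left to right and a line at the mean of each group. The LPS libraries of Icam1 lie between 88962 and 98893 and those of Itgal with LPS + (+)-JQ1 between 744 and 865, below all Unstimulated libraries of Itgal.

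Icam1 and Vcam1, the counter-receptors, had the largest responses to LPS. Given here and below in the order of replicates 1, 2 and 3, the normalised counts of Icam1 were 1350.0, 731 and 777 in the Unstimulated group and 98893, 95952 and 88962 after LPS. This was a 99.1-fold rise (log2 fold change 6.63, SE 0.19, DESeq2 adjusted p 4.23e-276). LPS + (+)-JQ1 libraries had 57282, 48224 and 56657 and LPS + IL-10 libraries 68621, 50696 and 52987. Both groups lay below every LPS library and above every library without LPS. The level was 1.75-fold lower with (+)-JQ1 (log2 -0.81, SE 0.18, DESeq2 adjusted p 3.3e-05) and 1.65-fold lower with IL-10 (log2 -0.72, SE 0.18, adjusted p 0.00111), and the call for IL-10 was lost without both libraries that stood apart (log2 -0.70, adjusted p 0.0894). Without LPS, Icam1 counts were 609.7, 419.9 and 486 under (+)-JQ1, all below the Unstimulated libraries (log2 -0.92, SE 0.19, adjusted p 6.75e-06), and 1175, 979.7 and 1090.0 under IL-10, which overlapped them.

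Vcam1 was the lowest of the 10 genes before stimulation. Its normalised counts were 201, 112 and 218 in the Unstimulated group and 10334, 8856 and 13352 after LPS, a 60.9-fold rise (log2 5.93, SE 0.32, DESeq2 adjusted p 1.4e-73). They were 4263, 3173 and 4625 after LPS + (+)-JQ1 and 5209, 2639 and 4934 after LPS + IL-10. All libraries of both groups were below all LPS libraries, and the 2 groups overlapped each other. Vcam1 was 2.70-fold lower with (+)-JQ1 (log2 -1.43, SE 0.32, adjusted p 2e-05) and 2.54-fold lower with IL-10 (log2 -1.35, SE 0.32, adjusted p 0.000319). In cells without LPS, (+)-JQ1 libraries had 119, 71.0 and 137 and overlapped the Unstimulated ones. That difference did not pass the test (log2 -0.70, SE 0.33, adjusted p 0.0712), but did with the replicate number as a block (adjusted p 2.9e-05). It also passed under total-count scaling (-0.88, adjusted p 0.0238), with limma on log2(TPM + 0.1) (0.0417), when the 2 groups were fitted alone (0.00921), and without replicate 2 of Unstimulated (0.016) or replicate 3 of (+)-JQ1 (0.0421). Markers of endothelium, a tissue known for both counter-receptors, summed to 0.59 to 0.77 TPM in Unstimulated cells, 7.48 to 9.59 TPM with LPS, 0.04 to 0.14 TPM with LPS + (+)-JQ1 and 7.63 to 9.31 TPM with LPS + IL-10, where both counter-receptors were lower than with LPS. In the LPS libraries 1 of the 4, Kdr, exceeded 1 TPM, and their part in the result was not tested.

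Whether the counter-receptors still respond to LPS after pretreatment was read from LPS against the same pretreatment without LPS. After (+)-JQ1, LPS raised Icam1 107-fold (log2 6.74, SE 0.19) and Vcam1 36.8-fold (log2 5.20, SE 0.33). The effect of (+)-JQ1 on Icam1 with LPS minus that without LPS was 0.11 on the log2 scale (95% interval -0.41 to 0.63, DESeq2 adjusted p 0.779), so a difference was not detected, whereas under total-count scaling it was 0.66 (adjusted p 0.0255). For Vcam1 it was -0.73 (-1.63 to 0.17, adjusted p 0.205, and 0.000798 with the replicate block). After IL-10, LPS raised Icam1 53.1-fold and Vcam1 25.7-fold. The effect of IL-10 on Icam1 with LPS minus that without was -0.90 (SE 0.26, adjusted p 0.0114), and this call was lost when any of 6 single libraries was left out, among them replicate 3 of LPS (adjusted p 0.0825), with values between -0.94 and -0.74. The same difference for Vcam1 was -1.25 (-2.14 to -0.35, adjusted p 0.0758, and 8.41e-10 with the replicate block).

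Itgal, the alpha subunit of LFA-1, showed the largest change with (+)-JQ1 of the 10 genes. Its normalised counts were 3313, 2369.5 and 2274 in the Unstimulated group, 483, 423 and 459 under (+)-JQ1 and 3464, 2768 and 2776 under IL-10. After LPS they reached 17037, 15419.6 and 14281, against 865, 744 and 819.8 in the LPS + (+)-JQ1 group and 17779, 15522 and 14796 in the LPS + IL-10 group. Both (+)-JQ1 groups lay below every library of the other 4 groups, and both IL-10 groups overlapped their controls. LPS raised Itgal 5.87-fold (log2 2.55, SE 0.13, DESeq2 adjusted p 8.44e-81). (+)-JQ1 lowered it 5.83-fold without LPS (log2 -2.54, SE 0.14, adjusted p 2.3e-73) and 19.2-fold with LPS (log2 -4.27, SE 0.14, adjusted p 3.58e-214). The effect with LPS minus that without was -1.72 log2 units (SE 0.19, adjusted p 1.63e-17), and the level with LPS + (+)-JQ1 was 3.28-fold below that of Unstimulated cells (log2 -1.71, SE 0.14). With IL-10 during LPS the difference was 0.04 log2 units (-0.22 to 0.30, adjusted p 0.902). Lymphocytes also express Itgal, and markers of T and NK cells summed to 6.83 to 8.05 TPM in Unstimulated cells, 3.06 to 3.92 with (+)-JQ1 and 5.69 to 8.62 with IL-10. They summed to 2.73 to 3.84 with LPS, 1.83 to 2.62 with LPS + (+)-JQ1 and 2.23 to 3.49 with LPS + IL-10. Cd4, which macrophages can express, was the highest in each group, and the part of these markers in the result was not tested.

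Itgam, the alpha subunit of Mac-1 and a common marker of myeloid cells, went down with (+)-JQ1 and up with IL-10. Normalised counts were 10985, 10061 and 9365 in the Unstimulated group, 3137, 3406 and 3240.2 under (+)-JQ1 and 14512, 13552 and 13596 under IL-10. They were 10762, 11453 and 10782 after LPS, 2177, 2352 and 2309 after LPS + (+)-JQ1 and 17129.9, 18341 and 18243 after LPS + IL-10. In both settings the (+)-JQ1 libraries were below and the IL-10 libraries above all 3 libraries of their control. (+)-JQ1 lowered Itgam 3.11-fold without LPS (log2 -1.64, SE 0.06, DESeq2 adjusted p 1.74e-140) and 4.83-fold with LPS (log2 -2.27, SE 0.07, adjusted p 1.5e-261). IL-10 raised it 1.37-fold without LPS (log2 0.45, SE 0.06, adjusted p 2.72e-10) and 1.63-fold with LPS (log2 0.70, SE 0.06, adjusted p 1.81e-26). Between LPS + (+)-JQ1 and LPS + IL-10 the level differed 7.86-fold. Neutrophils also carry Mac-1, and their 8 markers summed to 22.4 to 79.5 TPM in Unstimulated cells, 6.80 to 14.5 with (+)-JQ1, 22.6 to 32.8 with IL-10, 33.7 to 48.4 with LPS, 11.1 to 24.4 with LPS + (+)-JQ1 and 29.2 to 63.9 with LPS + IL-10, led by S100a8 and S100a9. Ly6g was at 0 in all of them, and the part of the others in the result was not tested.

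The response of Itgam to LPS depended on the scaling. Without pretreatment it was 0.12 log2 units (-0.01 to 0.24, DESeq2 adjusted p 0.092), but -0.81 under total-count scaling (adjusted p 8.75e-32). With the size factors of DESeq2, Itgam was called higher when replicate 1 of Unstimulated was left out (0.18, adjusted p 0.00639). Total-count scaling moved the median of all tested genes in this comparison from -0.07 to -1.02, and relative to that median Itgam was 0.19 higher with the size factors of DESeq2 and 0.21 higher with total counts. Itgb2 was likewise 0.02 (-0.13 to 0.17, adjusted p 0.836) and -0.91 with total counts, or 0.09 and 0.11 above the median of all genes. Itgax, the alpha subunit of complement receptor 4, rose with LPS (log2 0.41, SE 0.10, adjusted p 0.000104) but was -0.51 with total counts, 0.48 and 0.50 above the median. The TPM of all 3 genes was lower with LPS.

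Itgb2, the shared beta subunit of the leukocyte integrins, and Itgax both fell with (+)-JQ1. Itgb2 had 11199.5, 10708 and 10282 normalised counts in the Unstimulated group, 7104, 7592 and 7702 under (+)-JQ1, 11205, 11565 and 9891 after LPS and 5823, 5660.4 and 5781 after LPS + (+)-JQ1. The (+)-JQ1 libraries did not overlap their controls, and the fall was 1.44-fold without LPS (log2 -0.52, SE 0.08, DESeq2 adjusted p 1.39e-10) and 1.89-fold with LPS (log2 -0.92, SE 0.08, adjusted p 3.87e-31). With IL-10 it differed by -0.10 (-0.25 to 0.05) without LPS and by -0.11 (-0.26 to 0.04) with LPS, and neither passed the test. Itgax counts were 2571, 2016 and 2396 in the Unstimulated group, 1311, 1249.9 and 1322 under (+)-JQ1, 3259, 2893 and 3184 after LPS and 1256, 1102 and 1316 after LPS + (+)-JQ1. Again the (+)-JQ1 groups lay below their controls without overlap, 1.80-fold lower without LPS (log2 -0.85, SE 0.10, adjusted p 3.19e-15) and 2.54-fold with LPS (log2 -1.35, SE 0.10, adjusted p 3.63e-37). IL-10 before LPS lowered Itgax by less (log2 -0.34, SE 0.10, adjusted p 0.00771), a call that was lost under total-count scaling (-0.25), with limma on TPM (-0.23) and without replicate 1 of LPS (adjusted p 0.0583) or replicate 2 of LPS + IL-10 (adjusted p 0.0935).

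As TPM is scaled for length, the genes of the 3 alpha subunits on the list that share Itgb2 could be set against each other. Itgad, a further partner of Itgb2, did not exceed 2.07 TPM in any library. Itgam made up 66.7% ± 2.29 (SD, n = 3) of the summed TPM of Itgam, Itgal and Itgax in Unstimulated cells, Itgal 15.4% ± 1.75 and Itgax 17.9% ± 1.77. With LPS the share of Itgam was 38.6% ± 2.13 and that of Itgal 48.6% ± 2.19. After LPS + (+)-JQ1 they were 51.4% ± 2.83 and 16.3% ± 1.05, with Itgax at 32.3% ± 2.04, and after LPS + IL-10 they were 51.1% ± 3.25, 40.7% ± 2.80 and 8.19% ± 0.769. Of 15 comparisons of shares, 13 had no overlap between groups, and each of these gave p = 0.1 in an exact two-sided permutation test (0.115 after adjustment over the 15), the smallest that 3 against 3 allows. The exceptions were Itgam with (+)-JQ1 alone (62.9%, exact p = 0.2, adjusted 0.214) and Itgal with IL-10 alone (14.0%, exact p = 0.4). The 3 shares of a library add up to the whole and comparisons share libraries, so the 15 tests are not independent. The summed TPM of the 3 alpha subunits was 465 ± 51.3 in Unstimulated cells, 137 ± 3.77 with (+)-JQ1, 508 ± 15.3 in the LPS group, 97.6 ± 4.23 in the LPS + (+)-JQ1 group and 674 ± 28.7 in the LPS + IL-10 group. Itgb2 TPM per summed alpha TPM was thus 1.19 ± 0.0674, 2.42 ± 0.0730, 0.641 ± 0.0349, 2.18 ± 0.0559 and 0.482 ± 0.0437 in these 5 groups.

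**Figure D2:**
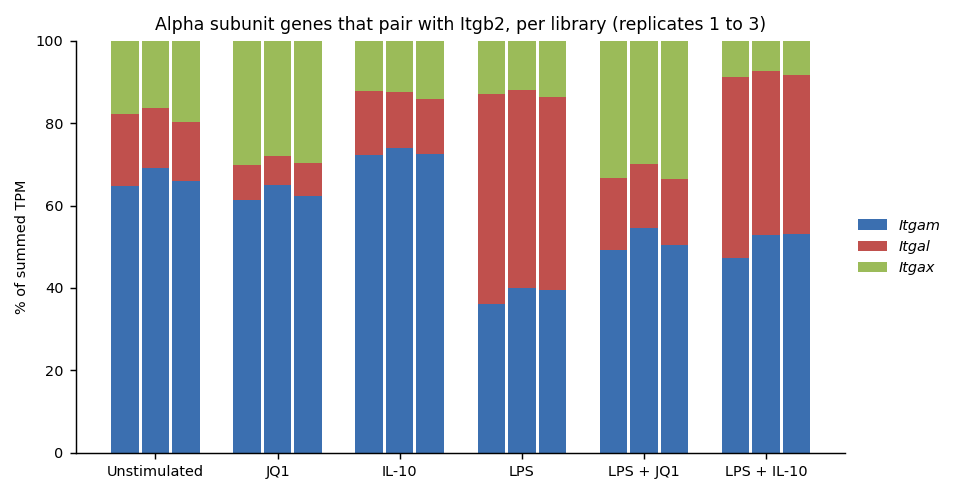
Share (%) of Itgam, Itgal and Itgax in their summed TPM in each library, with bars for replicates 1 to 3 in each of the 6 groups. Itgal takes 46.8% to 51.0% of the sum in the LPS libraries and 15.4% to 17.5% in those with LPS + (+)-JQ1.

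Itga4, the alpha subunit of VLA-4, rose less with LPS after (+)-JQ1 than without it. Its normalised counts were 2492, 2393 and 2352 in the Unstimulated group and 16440.3, 15029.8 and 22408 after LPS, where replicate 3, 1 of the libraries that stood apart, was highest. They were 1079, 1054 and 978 under (+)-JQ1 and 2004, 2273 and 1904 after LPS + (+)-JQ1. The (+)-JQ1 libraries were the lowest (log2 -1.22 against Unstimulated, SE 0.14), and the LPS + (+)-JQ1 libraries were also all below the Unstimulated ones. LPS raised Itga4 7.44-fold without pretreatment (log2 2.90, SE 0.14, DESeq2 adjusted p 1.62e-89) and 1.99-fold after (+)-JQ1 (log2 0.99, SE 0.15, adjusted p 4.56e-11), a difference of -1.91 log2 units (SE 0.20, adjusted p 3.73e-19). During LPS, (+)-JQ1 lowered Itga4 8.71-fold (log2 -3.12, SE 0.14, adjusted p 7.74e-103), to a level that differed from Unstimulated cells by -0.23 (-0.51 to 0.06, adjusted p 0.166). That last difference passed as lower under total-count scaling (-0.78, adjusted p 4.27e-07), with limma on TPM (-0.68, adjusted p 0.00158) and when the 2 groups were fitted alone (-0.21, adjusted p 0.0221). With LPS + IL-10 the counts were 12135, 10127 and 15148, which overlapped the LPS libraries but were lower in each of the 3 pairs (log2 -0.53, SE 0.14, adjusted p 0.00233). That call was lost with limma on TPM (adjusted p 0.113) and without replicate 3 of LPS (0.059).

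Itga5, the fibronectin receptor subunit, and Itgav rose with LPS after (+)-JQ1 as well. The counts of Itga5 were 3829, 3066 and 2933 in the Unstimulated group, 42289.7, 41242 and 33877 after LPS, 2044, 1871 and 1888 under (+)-JQ1 and 20113, 18970.4 and 19759.6 after LPS + (+)-JQ1. LPS raised it 11.9-fold without pretreatment (log2 3.58, SE 0.12, DESeq2 adjusted p 2.86e-206), 10.1-fold after (+)-JQ1 and 9.76-fold after IL-10. The difference between the first and second of these was -0.24 log2 units (-0.56 to 0.09, adjusted p 0.258), and passed without both libraries that stood apart (adjusted p 0.0371). At each setting the (+)-JQ1 libraries lay below the controls with no overlap, 1.69-fold lower without LPS (SE of log2 0.12, adjusted p 8.97e-10) and 2.00-fold lower with LPS (SE of log2 0.12, adjusted p 4.19e-17). IL-10 before LPS lowered Itga5 as well (log2 -0.46, SE 0.12, adjusted p 0.000907).

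Itgav had 3954, 4057 and 3828 normalised counts in the Unstimulated group, 2211, 1990.2 and 2017 under (+)-JQ1, 23887, 22875 and 25976 after LPS, 18639, 17381 and 16960.4 after LPS + (+)-JQ1 and 18296, 15616 and 19228 after LPS + IL-10. All LPS libraries were above those of both pretreated groups, and these 2 groups overlapped. LPS raised Itgav 6.15-fold without pretreatment (log2 2.62, SE 0.08) and 8.52-fold after (+)-JQ1 (log2 3.09, SE 0.08). Of the 10 genes it was the one whose effect of (+)-JQ1 was called as less negative with LPS than without (0.47, SE 0.11, DESeq2 adjusted p 0.000121). The fall with (+)-JQ1 during LPS (log2 -0.46, SE 0.08, adjusted p 1.47e-08) did not pass under total-count scaling (-0.08, adjusted p 0.404) or with limma on TPM (-0.15, adjusted p 0.175), where the medians of all genes were 0.25 and 0.17 against -0.11. (+)-JQ1 alone lowered Itgav (log2 -0.93, SE 0.08), as did IL-10 before LPS (log2 -0.45, SE 0.08, adjusted p 1.63e-07).

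Itgb1, the shared beta subunit, changed least with (+)-JQ1 alone. Its counts were 5788, 5637 and 6143 in the Unstimulated group and 6514, 5320.1 and 5974 under (+)-JQ1, which overlapped (log2 0.02, -0.18 to 0.22). They were 10964, 10362 and 12732 after LPS and 7410.3, 6845 and 6759 after LPS + (+)-JQ1, which did not. LPS raised Itgb1 1.94-fold (log2 0.95, SE 0.10, DESeq2 adjusted p 2.56e-20), a call lost under total-count scaling (0.03, adjusted p 0.831) and with limma on TPM (0.17, adjusted p 0.224). (+)-JQ1 before LPS lowered it 1.62-fold (log2 -0.70, SE 0.10, adjusted p 3.32e-11), and IL-10 before LPS differed by -0.08 (-0.28 to 0.12, adjusted p 0.717).

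**Figure D3:**
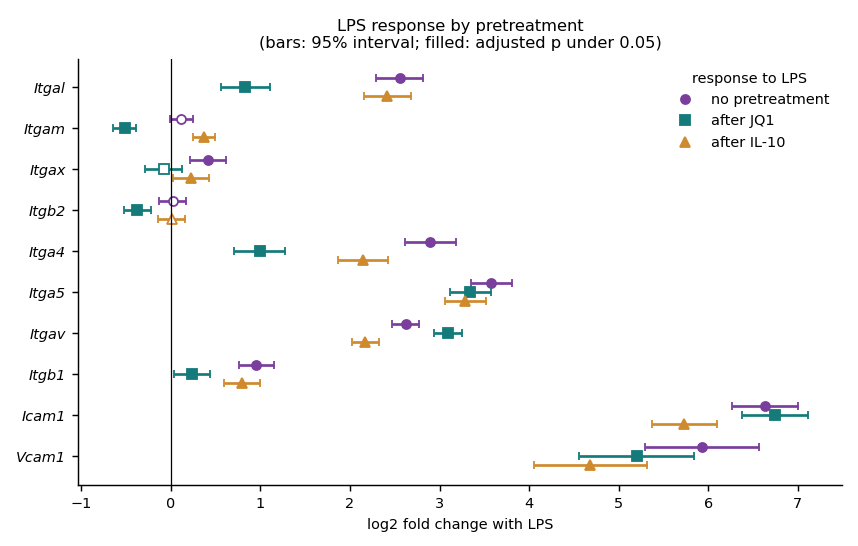
Log2 fold change with LPS for each gene, without pretreatment (circles), after (+)-JQ1 (squares) and after IL-10 (triangles), with 95% intervals and filled symbols for an adjusted p under 0.05. The squares of Itgal and Itga4 lie at 0.83 and 0.99 where the circles lie at 2.55 and 2.90, whereas those of Icam1 lie at 6.74 and 6.63.

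Set side by side, LPS after (+)-JQ1 raised 7 of the 10 genes and lowered 2, Itgam (log2 -0.52) and Itgb2 (-0.38), with a background of 27.6% higher and 31.0% lower. Of the 7, Itgb1 (log2 0.24, adjusted p 0.0337 by DESeq2) turned to -0.14 under total-count scaling and did not pass with lane as a term (adjusted p 0.0508). That call was also lost without replicate 2 (0.198) or 3 (0.0688) of (+)-JQ1 and without replicate 1 (0.149) or 2 (0.0557) of LPS + (+)-JQ1. Itgax, not called here, was lower under total-count scaling (-0.46, adjusted p 4.02e-05) and with limma on TPM (-0.34, adjusted p 0.0129). LPS after IL-10 raised 9 of 10 (background 33.2% higher, 33.8% lower). Of these, Itgam, Itgax and Itgb1 turned negative under total-count scaling (-0.46, -0.61 and -0.03), and Itgax did not pass with edgeR (adjusted p 0.106) or with lane as a term (adjusted p 0.0523). The call for Itgax was also lost with TMM scaling factors (0.179), without replicate 1 (0.0933) or 2 (0.198) of IL-10 and without replicate 1 (0.223) or 3 (0.086) of LPS + IL-10. These comparisons and the one without pretreatment share no libraries, but they come from the same 3 mice and the same fit, so they are not independent.

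Relative to Unstimulated cells, LPS + (+)-JQ1 left 5 genes higher and 4 lower (background 30.1% higher, 32.3% lower). The 4 lower genes were Itgal, Itgam (log2 -2.15), Itgax (-0.93) and Itgb2 (-0.90), that is, the subunits of the Itgb2 family. Icam1 (log2 5.82), Vcam1 (4.50), Itga5 (2.58), Itgav (2.16) and Itgb1 (0.26) were higher, although Itgb1 was -0.29 under total-count scaling. The call for Itgb1 by DESeq2 was also lost without replicate 2 of Unstimulated (adjusted p 0.0723) or replicate 1 of LPS + (+)-JQ1 (0.0858). Itga4 did not pass the test, but was lower under the 3 alternatives given with its values.

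The effect of (+)-JQ1 differed with and without LPS for 7 of the 10 genes, against 41.5% of all tested genes. It was more negative with LPS for Itga4, Itgal, Itgam (-0.63, SE 0.09), Itgax (-0.50, SE 0.15), Itgb1 (-0.72, SE 0.14) and Itgb2 (-0.40, SE 0.11), with Itgav the exception. Total-count scaling moved the median of all genes in this test from -0.05 to 0.51, and the calls for Itgam, Itgax, Itgb1 and Itgb2 were then lost. The effect of IL-10 differed for 3 of 10, Itga4 (-0.75, SE 0.20), Itgav (-0.45, SE 0.11) and Icam1, against 7.44% of all tested genes, and for none of the 10 with limma on TPM, where the values were -0.68, -0.39 and -0.91. Itgam did not pass with the size factors of DESeq2 (0.25, adjusted p 0.0655), but did under total-count scaling (0.35, adjusted p 0.00609). It also passed without replicate 3 of Unstimulated (0.00987) or replicate 1 of IL-10 (0.0496). The same held without replicate 2 of LPS (0.0456) or replicate 1 of LPS + IL-10 (0.039).

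**Figure D4:**
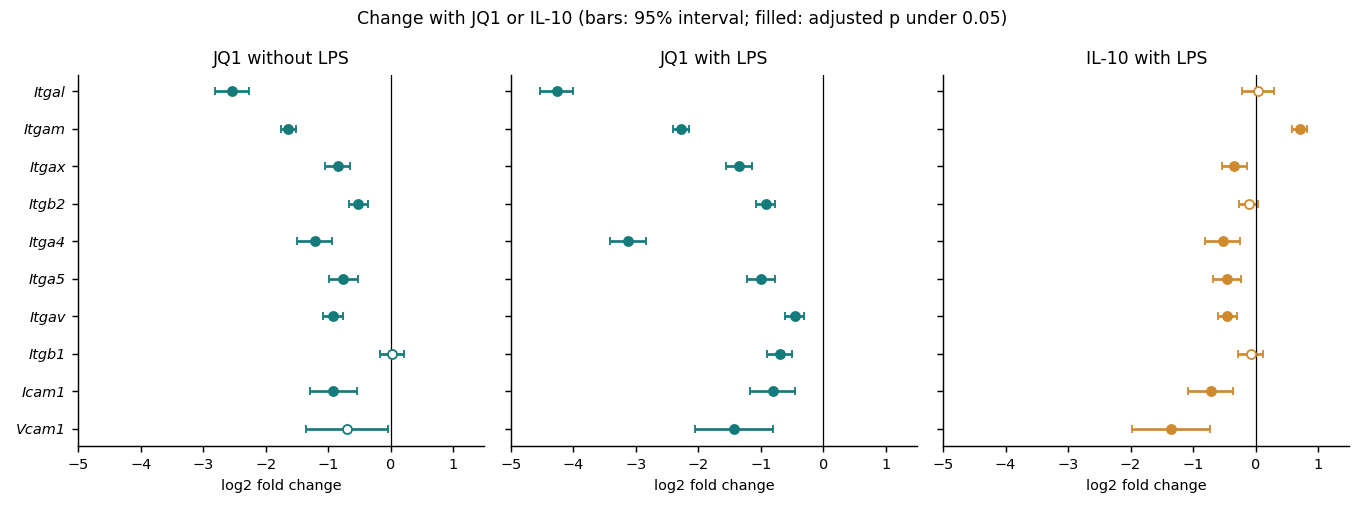
Log2 fold change with (+)-JQ1 without LPS (left), with (+)-JQ1 during LPS (centre) and with IL-10 during LPS (right), with 95% intervals and filled points for an adjusted p under 0.05. During LPS the points of (+)-JQ1 run from -4.27 (Itgal) to -0.46 (Itgav), and Itgam lies at -2.27 with (+)-JQ1 and at 0.70 with IL-10.

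Compared directly during LPS, (+)-JQ1 left 7 of the 10 genes lower than IL-10 did and none higher (background 31.6% lower, 23.8% higher). The differences were largest for Itgal (log2 -4.31, SE 0.14), Itgam (-2.97, SE 0.07) and Itga4 (-2.60, SE 0.14), followed by Itgax (-1.01), Itgb2 (-0.81), Itgb1 (-0.62) and Itga5 (-0.54). Differences were not detected for Icam1 (-0.09, 95% interval -0.45 to 0.27), Vcam1 (-0.08, -0.71 to 0.54) and Itgav (-0.01, -0.16 to 0.15). The interval of Vcam1 is wide, and total-count scaling put Itgav 0.28 above its level under IL-10 (DESeq2 adjusted p 0.00124).

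The genes whose pattern over the 18 libraries was most like that of the 3 members with the widest range were sought among 8378 genes whose normalised counts averaged 100 or more. For Icam1 they were St3gal1 (Pearson r 0.999), Nrp2 (0.998) and Sept11 (0.997), for Vcam1 Cxcl1 (0.994), Gphn (0.993) and Lilr4b (0.992), and for Itgal Ano6 (0.993), Zmynd15 (0.991) and Pid1 (0.991). The 18 points share their groups, so they are not independent.

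Beyond the 10 genes, 18 other integrin subunits were examined. LPS raised 3 and lowered 3 of the 18 tested, (+)-JQ1 before LPS lowered 6 of 17 and raised none, and IL-10 before LPS raised 1 and lowered 1 of 8. The background shares given above for these comparisons are 31.6% higher and 32.9% lower for LPS, 24.4% and 32.9% for (+)-JQ1 before LPS, and 8.38% and 8.81% for IL-10 before LPS, so that the 35.3% lowered by (+)-JQ1 was near the background. Itgb8, which with Itgav activates latent TGF-beta, had 3, 1 and 4 reads in Unstimulated cells and 1047 ± 153 normalised counts (SD, n = 3) with LPS, a ratio of 442 with a 95% counting interval of 224 to 1024. With LPS + (+)-JQ1 it had 8.93 ± 6.32 (log2 -6.86, SE 0.34, DESeq2 adjusted p 7.05e-88). With LPS + IL-10 it had 601 ± 109 (log2 -0.80, adjusted p 0.000111), and that call was lost with the replicate block (adjusted p 0.296). Itga6, a laminin receptor subunit, fell with LPS (log2 -1.59, SE 0.09) and further with (+)-JQ1 (log2 -0.93, SE 0.09), and Itgb5, a vitronectin receptor subunit, fell with LPS (log2 -1.22, SE 0.10). Itga9 was lower with (+)-JQ1 (log2 -1.82, SE 0.11) and higher with IL-10 (log2 0.42, SE 0.10), both relative to LPS.

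Of 22 other adhesion receptors and counter-receptors, LPS raised 11 and lowered 1 of 21 tested, (+)-JQ1 before LPS raised 1 and lowered 7 of 20, and IL-10 before LPS raised 1 and lowered 5 of 17. Against the same background, 52.4% were raised by LPS, while the 35.0% lowered by (+)-JQ1 was near it. With IL-10, 29.4% were lowered beside a background of 8.81%, and 5.88% raised beside 8.38%. Sele, E-selectin, had no read in any Unstimulated library and 482 ± 89.3 normalised counts with LPS, at least 154-fold higher against a floor of 3 counts per library. It was at 106 ± 20.2 with LPS + (+)-JQ1 (log2 -2.18, SE 0.51, DESeq2 adjusted p 5.7e-05) and at 75.6 ± 54.1 with LPS + IL-10 (log2 -2.67, SE 0.52, adjusted p 4.71e-06). Cd44, the hyaluronan receptor, rose 5.94-fold with LPS, and F11r, a junctional adhesion molecule that binds LFA-1, rose 5.14-fold. (+)-JQ1 before LPS lowered Selplg, the ligand of P-selectin, 2.88-fold and raised the tetraspanin Cd151 1.89-fold. IL-10 before LPS lowered the tetraspanin Cd9 1.49-fold and raised F11r 1.41-fold, the latter not without replicate 3 of LPS (adjusted p 0.0651) or without replicate 1 (0.0654) or 2 (0.0563) of LPS + IL-10.

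Of 30 genes listed for integrin activation, its control and linkage to actin, LPS raised 18 and lowered 5 of 29 tested. (+)-JQ1 before LPS lowered 20 and raised 5 of 29, and IL-10 before LPS raised 3 and lowered 3 of 25. The 62.1% raised by LPS and the 69.0% lowered by (+)-JQ1 stand beside backgrounds of 31.6% and 32.9%, and the 12.0% in each direction with IL-10 was near the background. With LPS, Rap1b, a small GTPase that turns integrins on, rose 7.05-fold, Filip1l 6.65-fold and the focal adhesion protein gene Zyx 4.71-fold. Fermt3, kindlin-3, the activator of Itgb2 integrins in blood cells, was 3.59-fold lower with (+)-JQ1 (log2 -1.84, SE 0.11, DESeq2 adjusted p 1.9e-58) and 1.46-fold higher with IL-10 (log2 0.55, SE 0.11, adjusted p 6.53e-06), each relative to LPS. Parvg was 3.44-fold lower and Vcl, vinculin, 3.02-fold higher with (+)-JQ1. With IL-10, Actn1 was 1.33-fold lower and Pxn, paxillin, 1.30-fold higher. The call for Pxn was lost without replicate 3 of LPS (adjusted p 0.139) and without replicate 1 (0.105) or replicate 2 (0.151) of LPS + IL-10.

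Of 20 matrix ligands of integrins, LPS raised 7 and lowered 3 of 19 tested. (+)-JQ1 before LPS lowered 10 and raised 2 of 19, and IL-10 before LPS raised 3 and lowered none of 16. The 36.8% raised by LPS was near the background of 31.6%, and the 52.6% lowered by (+)-JQ1 stands beside 32.9%. The 18.8% raised by IL-10 stands beside 8.38%, and none lowered beside 8.81%. Tnc, tenascin C, rose 43.1-fold with LPS and Spp1, osteopontin, 2.74-fold, while Emilin1 fell 3.65-fold. Fn1, fibronectin, the ligand of Itga5 and Itga4 integrins, reached 3344 ± 268 normalised counts in the LPS group, 394 ± 85.0 in the LPS + (+)-JQ1 group (log2 -3.09, SE 0.17, DESeq2 adjusted p 1.46e-71) and 5941 ± 462 in the LPS + IL-10 group (log2 0.83, SE 0.17, adjusted p 9.91e-06). Tgfbi was lowered 7.67-fold by (+)-JQ1 and raised 4.26-fold by IL-10, and Tnc was lowered 20.6-fold by (+)-JQ1. Lamc1, a laminin chain gene, was 1.26-fold higher with IL-10, but not without replicate 2 of LPS + IL-10 (adjusted p 0.0654). Markers of fibroblasts and stroma, which make much of the matrix, summed to 4.90 to 10.2 TPM in Unstimulated cells, 17.4 to 19.0 with LPS, 2.23 to 7.10 with LPS + (+)-JQ1 and 19.2 to 20.9 with LPS + IL-10. Pdgfrb was the highest of the 5 in LPS libraries, while the means of Col1a1, Col1a2 and Col3a1 were lower there than in Unstimulated cells. The part of these markers in the result was not tested.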

How the data were processed

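Ribosomal RNA-depleted libraries (KAPA stranded kit) of 3 mice were sequenced in pairs of 50 bases. The authors mapped reads with STAR (mm9), ran RSEM 1.2.31 with default settings, and deposited expected counts and TPM per gene for each of 18 libraries; the deposited FPKM values were not used. Here expected counts (5.395 to 6.633% of genes not whole) were rounded and fitted with DESeq2 1.42.0 (R 4.3.3) over all 18 libraries by group, with the Wald test and Benjamini-Hochberg adjustment over all genes, called at 0.05. Alternatives used edgeR 4.0.16, limma 3.58.1 on log2(TPM + 1) or log2(TPM + 0.1), other scalings, a low-count filter, lane as a term and each library left out. The fits were tested on a single set of simulated counts, with the same spread set for every gene and no effect of lane or replicate. There the calls of DESeq2 held a larger share of unchanged genes than the threshold allows. A single run cannot give the expected share. Samples were grouped by their titles, and a replicate number was read as 1 mouse, since the labels call the libraries matched. Between groups compared, the deviations of same-numbered libraries from their group means correlated with r of -0.124 to 0.453. The highest r was that of replicate 3 between LPS and LPS + IL-10, the libraries that stood apart. All 10 members are described. From each list of other genes, up to 3 per comparison were named by the largest change among called genes that averaged 100 or more normalised counts and moved 1 way in all 3 pairs. Members and lists were chosen with earlier results of these data known.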

Additional observations from a re-analysis of the deposited data

Results flagged for a closer look

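For 7 genes the effect of (+)-JQ1 during LPS differed from its effect without LPS, by the interaction test of DESeq2. The difference, as log2 units with LPS minus without, was -1.905 for Itga4 (SE 0.204, adjusted p 3.73e-19), -1.723 for Itgal (SE 0.194, adjusted p 1.63e-17) and -0.634 for Itgam (SE 0.092, adjusted p 5.94e-11). It was -0.716 for Itgb1 (adjusted p 4.17e-06), -0.496 for Itgax (adjusted p 0.00258), -0.397 for Itgb2 (adjusted p 0.00118) and, in the other direction, 0.471 for Itgav (adjusted p 0.000121). For 3 genes the effect of IL-10 differed in the same way, by -0.75 for Itga4 (adjusted p 0.00488), -0.449 for Itgav (adjusted p 0.00149) and -0.9 for Icam1 (adjusted p 0.0114). Itga4 and Itgav are thus the genes for which both pretreatments were called, and for Itgav the 2 differences have opposite signs.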

How the results depend on the processing

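Among changes called in the main fit or under an alternative, directions changed only under total-count scaling or with limma on TPM. Differences called in neither could change sign elsewhere too, as Itgb2 with LPS did with TMM factors (0.021 to -0.053). Under the settings that left out no library, 32 values of the 10 genes were reversed, while 913 kept their direction and side of the threshold. For LPS against Unstimulated cells, total-count scaling gave -0.808 for Itgam, -0.514 for Itgax and -0.906 for Itgb2, limma on log2(TPM + 1) -0.655, -0.349 and -0.758, and on log2(TPM + 0.1) -0.657, -0.353 and -0.759. For LPS after IL-10, total counts gave -0.462 for Itgam, -0.607 for Itgax, -0.033 for Itgb1 and -0.819 for Itgb2, and limma gave -0.354 and -0.355 for Itgam, -0.494 and -0.5 for Itgax, and -0.715 and -0.716 for Itgb2. Itgb1 was -0.137, -0.024 and -0.024 for LPS after (+)-JQ1, and -0.293, -0.213 and -0.214 for LPS + (+)-JQ1 against Unstimulated cells, under these 3 settings. Itgav was 0.277 between LPS + (+)-JQ1 and LPS + IL-10 with total counts. The interaction of (+)-JQ1 with LPS was 0.057, 0.008 and 0.004 for Itgax and 0.156, 0.117 and 0.116 for Itgb2, and was called for 4, 3 and 3 genes in place of 7. Over all tested genes, its calls went from 5279 of 12727 to 6987 of 13367 with total counts and 6837 of 11436 with log2(TPM + 1). Of these calls 42.6%, 85.4% and 82.8% were positive. The interaction of IL-10 with LPS was called for 0 genes with limma at either pseudocount in place of 3. The values behind that loss moved little (Itga4 -0.678, Itgav -0.392 and Icam1 -0.908 with log2(TPM + 1)), and its cause was not tested. Leaving out 1 library at a time gave 1 to 3 genes called for IL-10 alone, with Itgal and Icam1 gained without replicate 1 of Unstimulated cells. Over all values of the 10 genes 751 stayed on their side of the threshold, while 19 calls were lost and 10 gained.

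With the replicate block, Vcam1 was gained for (+)-JQ1 alone (adjusted p 2.9e-05) and for both interactions (0.000798 and 8.41e-10), Itgb8 was lost for IL-10 before LPS (0.296), and no other call among the genes named changed. An alternative chosen after seeing the data left out replicate 3 of LPS and of LPS + IL-10 together. IL-10 before LPS was then called for 5 genes in place of 7, without Itgax (adjusted p 0.0684) and Icam1 (0.0894), and the interaction of IL-10 for 2 in place of 3. The depth of 6781952 counts in the smallest library limits low genes such as Vcam1, and with 3 libraries a group exact tests could not go below 0.1.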
